A study of Mus musculus with 4 samples.

Results

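The 32 genes described here encode the enzymes of glycolysis and lactate formation, regulators of glycolytic flux, the hypoxia-inducible factor (HIF) subunits with their oxygen-sensing machinery, and known HIF target genes. They were chosen by symbol, and all 32 symbols were found among the 51509 genes listed in the deposited count table. Aldoa appeared in 2 rows, of which the second (ENSMUSG00000114515) had 2 to 9 counts per library and was not tested, so the values given are those of ENSMUSG00000030695. Gene expression was measured by RNA sequencing of intestinal organoids, epithelial cultures that reform crypt and villus cell types in a gel, from wild type C57BL/6 mice of 8 to 12 weeks. One group received SGC-CBP30, an inhibitor of the acetyl-lysine binding bromodomains of the co-activators CBP and p300, and the other received vehicle. All organoids of both groups had been irradiated with 8 Gy, RNA was taken 36 hours later, and no unirradiated organoids were analysed here. Each group had 2 libraries of 16433117 to 18087250 counts, and levels are given as CPM, counts scaled to library size with TMM normalization. The treatment label of SGC-CBP30 replicate 2 reads SGC-CBP31, and that library was placed by its title. The labels do not say whether replicates were separate cultures or mice, and p-values therefore cover only library-to-library spread, which may be technical.

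Glycolysis splits glucose into pyruvate, with hexokinase and phosphofructokinase as its main control points, and lactate dehydrogenase regenerates the NAD that the pathway consumes. HIF is a dimer of an alpha subunit (HIF-1 alpha from Hif1a, HIF-2 alpha from Epas1) and ARNT. In the presence of oxygen the prolyl hydroxylases of the Egln genes mark the alpha subunit for the ubiquitin ligase of VHL, so that HIF is controlled largely through the stability of a protein. HIF binds hypoxia response elements with the core letters ACGTG or GCGTG and recruits CBP and p300, and many glycolytic genes are among its targets. In the intestine the epithelium lies next to a lumen poor in oxygen, and HIF-2 is known for its part in iron uptake by enterocytes.

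The letters of the hypoxia response element were frequent in the promoters of these genes, whether or not the genes changed. RefSeq promoter windows on GRCm38.p6, from 250 bases before to 50 bases after each start, were found for 30 members and held 45 windows in all. Epas1 and Ndrg1 had no window. On either strand, ACGTG stood in 51.1% of the 45 member windows and in 19.6% of all 32851 windows, and GCGTG stood in 53.3% of member windows and 32.4% of all windows. The palindrome CACGTG holds ACGTG on both strands and so counts as a match on each, and it stood in 11.1% of member windows and 7.15% of all windows. Base composition was not matched between these sets. Either core was found in all 9 members that were higher with SGC-CBP30, in both members with a window that were lower, and in 16 of 19 members that were not past the threshold. By gene, either core stood in 90% of the 30 members and in 46.7% of all 27025 genes with a window. A gene counted if any of its windows matched, and the members had more windows per gene. By window, either core stood in 77.8% of member windows and 43.8% of all windows. The following stretches run 5′ to 3′ along the gene's own strand from 20 bases before the first match to 20 after the last, or to the end of the window, with the matches in capitals. Hk2, Pgk1, P4ha1 and Ddit4 are shown as members that were higher, Mxi1 and Pfkfb4 as members that were lower, and Ldha and Bnip3 as members that did not pass the threshold. For a member with several windows, 1 with the most matches is shown: Mxi1 had 3 windows and Ldha 2.
Hk2, chr6:82774482-82774700, minus strand: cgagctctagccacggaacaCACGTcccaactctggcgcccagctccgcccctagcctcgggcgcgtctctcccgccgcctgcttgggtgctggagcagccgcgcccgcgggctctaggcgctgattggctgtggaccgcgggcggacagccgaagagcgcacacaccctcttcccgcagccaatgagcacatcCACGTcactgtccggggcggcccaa
Pgk1, chrX:106186930-106186993, plus strand: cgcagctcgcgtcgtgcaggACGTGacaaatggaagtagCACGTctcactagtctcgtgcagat
P4ha1, chr10:59323113-59323304, plus strand: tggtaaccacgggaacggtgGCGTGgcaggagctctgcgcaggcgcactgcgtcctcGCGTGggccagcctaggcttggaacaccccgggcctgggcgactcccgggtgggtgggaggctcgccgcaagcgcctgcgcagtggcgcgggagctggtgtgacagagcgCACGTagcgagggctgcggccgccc
Ddit4, chr10:59951861-59951977, minus strand: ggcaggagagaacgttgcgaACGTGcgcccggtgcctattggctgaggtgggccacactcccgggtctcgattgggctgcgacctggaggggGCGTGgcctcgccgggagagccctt
Mxi1, chr19:53329327-53329371, plus strand: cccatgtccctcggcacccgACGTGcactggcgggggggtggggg
Pfkfb4, chr9:108991765-108991809, plus strand: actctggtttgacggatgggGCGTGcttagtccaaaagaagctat
Ldha, chr7:46845639-46845853, plus strand: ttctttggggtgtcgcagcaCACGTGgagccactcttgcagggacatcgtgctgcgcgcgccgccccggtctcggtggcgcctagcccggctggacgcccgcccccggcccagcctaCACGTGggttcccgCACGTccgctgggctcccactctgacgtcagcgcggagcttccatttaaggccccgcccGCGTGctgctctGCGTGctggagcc
Bnip3, chr7:138909517-138909643, minus strand: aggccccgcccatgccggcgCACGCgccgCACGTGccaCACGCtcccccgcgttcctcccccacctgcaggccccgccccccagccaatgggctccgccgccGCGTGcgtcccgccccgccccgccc
A match describes the letters only.

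With SGC-CBP30, hexokinase 1, liver-type phosphofructokinase and aldolase A transcripts were higher, the MYC antagonist gene Mxi1, the HIF target Ndrg1 and the flux regulator Pfkfb4 were lower, and most other members differed little. Of the 32 members, all tested, 9 were higher, 3 were lower and 20 were not past the threshold (edgeR's quasi-likelihood test over 14684 genes, with the adjusted p of Benjamini and Hochberg under 0.05). The members called made up 37.5% of the 32, against 30.0% of all genes tested. Members higher were 28.1%, against 13.6% of all genes, and members lower were 9.38%, against 16.3% of all genes. The counts given below for each list are to be read beside these shares of all genes. The size of change, as the median of absolute log2 fold changes, was 0.11 for the members and 0.25 for all genes. The members and all genes were not matched for expression level, which bears on this comparison and on the shares called. Of the 32 members 4 changed by at least 1.5-fold (Hk1, Adm, Mxi1 and Gapdh), against 19.4% of all genes. Gapdh was not past the threshold, and its log2 fold change was -0.14 without vehicle replicate 1. The median log2 fold change was 0.02 for the members and 0.01 for all genes. The values of the groups did not overlap in 16 members (50%), against 63.1% of all genes. With library totals as the scale, all log2 fold changes moved up by a median of 0.07, and the split over all genes was 2907 higher and 1924 lower, against 2004 higher and 2397 lower with TMM scaling. On that scale the members split into 10 higher and 3 lower. Leaving out SGC-CBP30 replicate 1 gave 7 members higher and 6 lower, and leaving out vehicle replicate 1 or 2 gave 6 members higher, with 1236 or 1235 of all genes higher.

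**Figure D1:**
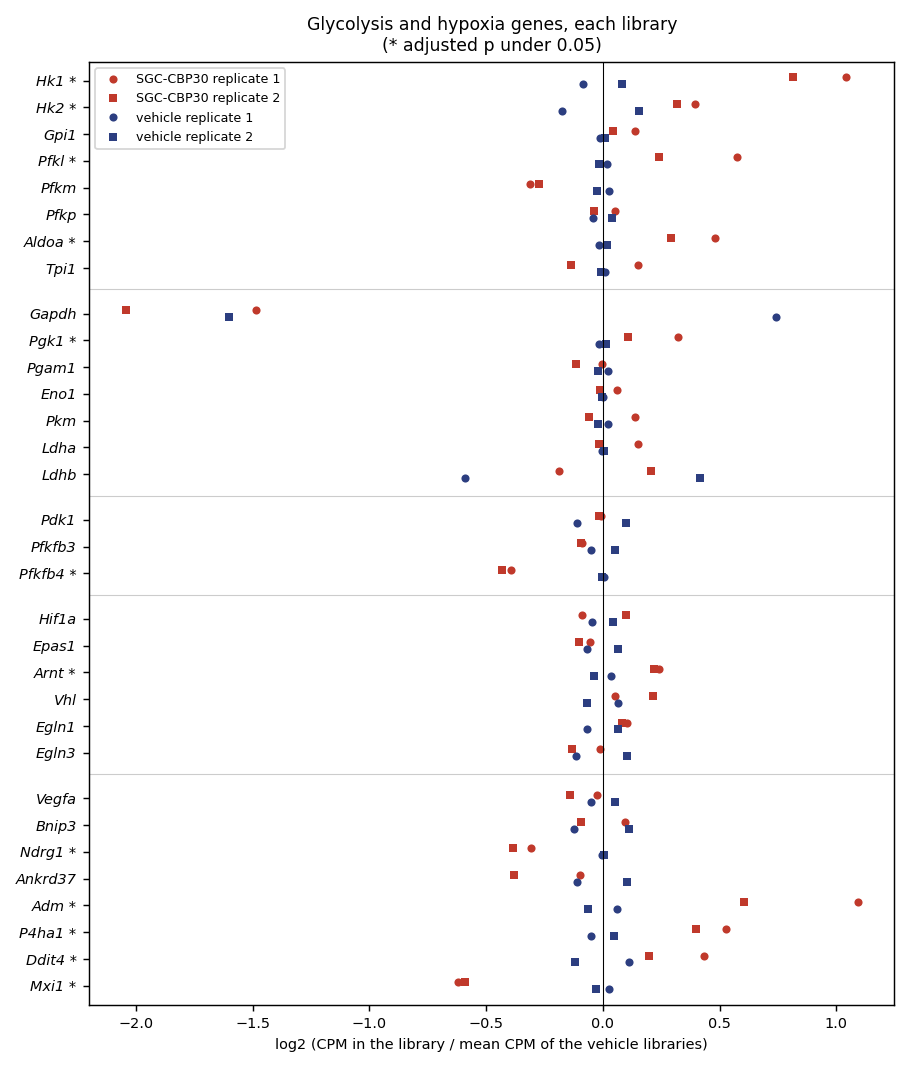
Each point is 1 library's CPM (the TMM-normalized count scaled to library size) of a member over the mean of the vehicle libraries, on a log2 axis, with red for SGC-CBP30 and blue for vehicle and an asterisk for an adjusted p under 0.05. The SGC-CBP30 libraries of Hk1 and Adm, with vehicle replicate 1 of Gapdh, lie farthest to the right. The SGC-CBP30 libraries of Mxi1 lie left of vehicle, and the other 3 of the 4 Gapdh libraries lie farthest to the left.

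The steps from glucose to triose phosphates held 4 of the 5 enzymes that rose: of their 8 members 4 were higher, 0 lower and 4 not past the threshold. Those called made up 50% of the 8, against 30.0% of all genes tested. Hk1 (ENSMUSG00000037012, GRCm38 chromosome 10, 62268855 to 62379908, minus strand), the broadly expressed hexokinase that traps glucose as its phosphate, had 87.0 and 74.3 CPM in SGC-CBP30 libraries, against 39.8 and 44.7 CPM in vehicle libraries. Its groups were well apart, with both treated libraries above both controls, and its log2 fold change of 0.93 ± 0.09 (SE) was the largest among the called members (1.91-fold, edgeR adjusted p = 9.25e-09). Pfkl (ENSMUSG00000020277, chromosome 10, 77986947 to 78010083, minus strand), the liver-type subunit of phosphofructokinase, had 283.9 and 225.2 CPM with SGC-CBP30 and 192.7 and 188.4 CPM with vehicle. The treated libraries differed from each other by more than the vehicle libraries did, and the log2 fold change was 0.42 ± 0.09 (edgeR adjusted p = 0.00166), or 0.24 without SGC-CBP30 replicate 1. Aldoa (ENSMUSG00000030695, chromosome 7, 126795234 to 126800751, minus strand), which cleaves fructose bisphosphate, had 1753 and 1539 CPM with SGC-CBP30 and 1243 and 1271 CPM with vehicle. Its groups did not overlap and it rose by 0.39 ± 0.06 on the log2 scale (edgeR adjusted p = 2.53e-05). Hk2, the inducible hexokinase, had 45.7 and 43.3 CPM with SGC-CBP30 and 30.8 and 38.7 CPM with vehicle, a log2 fold change of 0.36 ± 0.10 (edgeR adjusted p = 0.0107). Leaving out vehicle replicate 1, the lowest of the 4 libraries, ended that call, at a log2 fold change of 0.20 (adjusted p = 0.325).

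Gpi1, the glucose phosphate isomerase, Pfkp, the platelet-type phosphofructokinase, and Tpi1, the triose phosphate isomerase, were not past the threshold. Gpi1 had a log2 fold change of 0.09 ± 0.06 and passed the threshold when scaled to library totals, at 0.16 (adjusted p = 0.0214). Pfkp had 502.6 and 471.4 CPM with SGC-CBP30 and 470.7 and 497.8 CPM with vehicle, so that the groups overlapped. Tpi1 had 1077 and 883.3 CPM with SGC-CBP30 and 976.2 and 965.3 CPM with vehicle. One treated library of Tpi1 lay above and the other below the vehicle libraries, and the sign of its change depended on which was kept. Pfkm, the muscle-type subunit, had 19.4 and 19.9 CPM with SGC-CBP30 and 24.5 and 23.7 CPM with vehicle, with a log2 fold change of -0.29 ± 0.12 that missed the threshold (edgeR adjusted p = 0.0601) but passed it among genes with at least 50 counts in 2 libraries, at -0.31 (adjusted p = 0.0419). Pfkm overlaps Senp1 on the opposite strand, whose counts were 225% of its own, and since the use of strand is not given in the sources used here the reads of such a pair cannot be told apart.

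The balance between isozymes of 1 reaction was compared per deposited gene length. That length was 8532 bases for Hk1 and 13401 for Pfkp, against 4278 and 4145 for the longest annotated coding transcript. Which isozyme leads within a group therefore depends on the length used. Without division by length the log2 ratio of Hk1 to Hk2 was 0.854 with SGC-CBP30 and 0.288 with vehicle. Hk1 made up 57.1% and 54.6% of the summed length-scaled CPM of Hk1 and Hk2 in SGC-CBP30 libraries, against 47.5% and 44.7% in vehicle libraries. Hkdc1 was not part of this pair and stood far above it. Its mean length-scaled CPM was 62.7 with SGC-CBP30 and 73.9 with vehicle, against 9.45 and 4.95 for Hk1. The log2 ratio of Hk1 to Hk2 was 0.34 ± 0.11 with SGC-CBP30 and -0.23 ± 0.12 with vehicle (SD, n = 2 each; exact permutation test, two-sided, p = 0.333, the smallest that 2 against 2 libraries can give). Pfkl held 49.5% and 45.1% of the 3 phosphofructokinase genes in SGC-CBP30 libraries, against 40.5% and 38.95% in vehicle libraries. Pfkm held 7.37% ± 0.851 with SGC-CBP30 and 10.04% ± 0.356 with vehicle (SD, n = 2 each). Ldha, the lactate dehydrogenase subunit that favours lactate formation, supplied nearly all lactate dehydrogenase transcript: Ldhb, the heart-type subunit, had 14 and 19 counts with SGC-CBP30 and 11 and 20 counts with vehicle. The log2 ratio of Ldha to Ldhb was 10.7 ± 0.398 with SGC-CBP30 and 10.7 ± 0.709 with vehicle (SD, n = 2 each; exact permutation test, two-sided, p = 1). It did not differ beyond its spread.

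Several other isozymes of these steps were lower. Of 10 other glycolytic isozyme genes tested 5 were lower, 0 higher and 5 not past the threshold, with a median log2 fold change of -0.41. Pklr, the liver pyruvate kinase, had 863.8 and 817.8 CPM with SGC-CBP30 and 1244 and 1224 CPM with vehicle, a log2 fold change of -0.55 ± 0.06 (edgeR adjusted p = 3.01e-08). The share of Pkm in the summed length-scaled CPM of Pkm and Pklr was 61.0% ± 1.38 with SGC-CBP30 and 50.9% ± 0.281 with vehicle (SD, n = 2 each). Aldoc, the aldolase best known from brain, fell by 0.69 ± 0.08 and Bpgm, the bisphosphoglycerate mutase, by 0.41 ± 0.08 on the log2 scale. Hkdc1, a hexokinase domain protein gene named after its value was seen, fell by 0.24 ± 0.06. It had 337.6 and 305.9 CPM with SGC-CBP30 and 378.6 and 380.2 CPM with vehicle, above both Hk1 and Hk2.

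**Figure D2:**
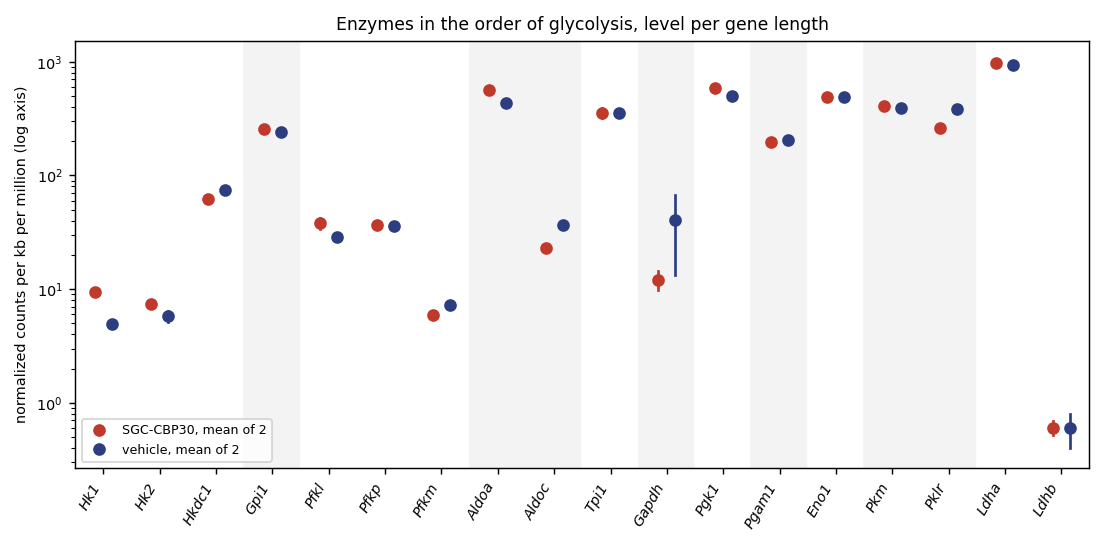
Points give the mean length-scaled CPM (CPM per kilobase of gene, log axis) of SGC-CBP30, red, left of vehicle, blue, for enzyme genes in the order of glycolysis, and for the members a line joins the values of the 2 libraries. Among the members Ldha stands highest, near 977 with SGC-CBP30 and 930 with vehicle, Ldhb lies near 0.6, and Gapdh lies far under its neighbours Tpi1 and Pgk1.

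In the steps from triose phosphate to lactate 1 of 7 members was higher, 0 lower and 6 not past the threshold. Pgk1 (ENSMUSG00000062070, chromosome X, 106187100 to 106203699, plus strand), the first ATP-forming enzyme of the pathway, had 1404 and 1210 CPM with SGC-CBP30 and 1110 and 1133 CPM with vehicle. It rose by 0.22 ± 0.06 on the log2 scale (edgeR adjusted p = 0.00979), with no overlap between the groups. The log2 fold change was 0.11 without SGC-CBP30 replicate 1, and Pgk1 missed the threshold with either vehicle library left out, at 0.21 ± 0.10 without replicate 1 (adjusted p = 0.139) and 0.24 ± 0.10 without replicate 2 (adjusted p = 0.0759), about the same size with a larger SE. Ldha had 3420 and 3045 CPM with SGC-CBP30 and 3071 and 3084 CPM with vehicle, a log2 fold change of 0.07 ± 0.06. Its vehicle libraries lay between the treated ones. The log2 fold changes of Eno1 (enolase), Pkm and Pgam1 (phosphoglycerate mutase) were 0.02 ± 0.06, 0.04 ± 0.06 and -0.06 ± 0.06, and none passed the threshold. In length-scaled CPM, with SGC-CBP30, Ldha stood highest among the members at a mean of 977 ± 80.1, followed by Pgk1 at 582.5 ± 60.9, Aldoa at 565.4 ± 51.8, Eno1 at 493.2 ± 18.1, Pkm at 407.1 ± 39.3 and Tpi1 at 356.1 ± 49.9 (SD, n = 2). With vehicle the levels were 930 ± 2.72 for Ldha, 499.9 ± 7.09 for Pgk1, 431.9 ± 6.97 for Aldoa, 485.0 ± 0.899 for Eno1, 395.8 ± 9.02 for Pkm and 352.6 ± 2.81 for Tpi1 (SD, n = 2). In these units Pgk1 and Aldoa did not differ beyond their spread with SGC-CBP30, whereas Aldoa lay under Eno1 with vehicle. The order after Ldha depends on the deposited lengths. These were 5379 bases for Eno1 and 2244 for Pgk1, against 2027 and 1825 for their longest annotated coding transcripts. In CPM not divided by length, the means with SGC-CBP30 were 2653 for Eno1, 2036 for Pkm, 1646 for Aldoa and 1307 for Pgk1. Over the 15 enzymes SGC-CBP30 replicate 1 lay above replicate 2 in 13, whereas vehicle replicate 1 lay above replicate 2 in 7. Their summed CPM was 15620 and 13970 with SGC-CBP30 and 13980 and 13780 with vehicle, so that 1 treated library stood above the other 3.

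Gapdh (ENSMUSG00000057666, chromosome 6, 125161715 to 125166467, minus strand), the dehydrogenase that joins upper and lower glycolysis and a common reference gene, did not behave like its neighbours. It had 1009 and 708 counts with SGC-CBP30 and 4905 and 874 counts with vehicle. Vehicle replicate 1 was 4.68 times the highest of the other 3 libraries in CPM, and the remaining 3 libraries lay between 40.3 and 59.3 CPM. The log2 fold change was -1.75 ± 1.15 and not past the threshold (edgeR adjusted p = 0.426), -0.14 without vehicle replicate 1 and -2.48 without vehicle replicate 2 (adjusted p = 6.36e-107). A search of all genes with at least 500 counts in a library for values at least 4 times those of the other 3 libraries returned Gapdh alone of 5948 genes in vehicle replicate 1, and 0 genes in each other library. Gapdh was also the member with the most near-identical copies: annotated transcripts of 48 other loci matched 88% of its transcript at 97% identity or more over at least 200 bases. Those copies summed to 1262 and 1048 counts with SGC-CBP30 and 1106 and 1018 counts with vehicle, and did not share the high value of vehicle replicate 1. In length-scaled CPM Gapdh had 12.05 with SGC-CBP30 and 40.2 with vehicle, far under Tpi1 and Pgk1, and how reads that map to several places were counted is not given in the sources used here. The part of the copies in either pattern was not tested.

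**Figure D3:**
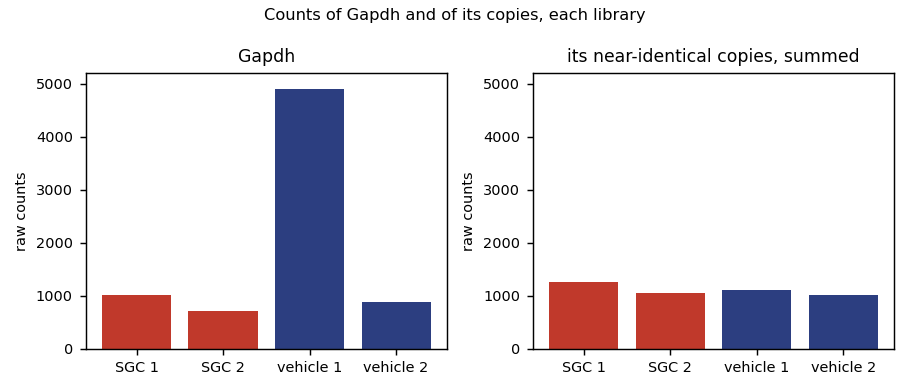
Bars show raw counts per library of Gapdh (left) and of its 48 near-identical copies summed (right), SGC-CBP30 in red and vehicle in blue. Vehicle replicate 1 reaches 4905 counts for Gapdh, against 708 to 1009 in the other 3 libraries, while the copies stay between 1018 and 1262 in all 4.

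Among the regulators of flux, Pfkfb4 was lower and the other members were not past the threshold. Pfkfb4 (ENSMUSG00000025648, chromosome 9, 108991778 to 109032228, plus strand), whose enzyme sets the level of fructose 2,6-bisphosphate, the activator of phosphofructokinase, had 113.5 and 110.5 CPM with SGC-CBP30 and 149.5 and 148.3 CPM with vehicle. Replicates lay close and the groups did not overlap, with a log2 fold change of -0.41 ± 0.07 (edgeR adjusted p = 3.36e-05). Pfkfb3, the strongly kinase-active relative, had 70.6 and 70.4 CPM with SGC-CBP30 and 72.4 and 77.7 CPM with vehicle and was not past the threshold (log2 fold change -0.09 ± 0.08). Pfkfb4 thus held 71.1% ± 0.342 of their length-scaled CPM with SGC-CBP30 and 75.5% ± 1.04 with vehicle (SD, n = 2 each). Pdk1, the kinase that closes the pyruvate dehydrogenase complex under hypoxia, had 155.0 and 153.8 CPM with SGC-CBP30 and 144.3 and 167.0 CPM with vehicle (-0.01 ± 0.07). Of 9 other regulator genes 1 was higher and 4 lower, against 0 higher with either vehicle library left out and 2 lower without vehicle replicate 1. Pdk2, a relative of Pdk1, fell by 0.64 ± 0.08 on the log2 scale and Pfkfb2 by 0.30 ± 0.08, while Pdk3, the higher gene whose call was lost with either vehicle library left out, rose by 0.41 ± 0.14. Gckr, the glucokinase regulator of liver, had 0.647 and 0.228 CPM with SGC-CBP30 and 4.02 and 3.57 CPM with vehicle (log2 fold change -3.11 ± 0.44). Pdk4, named after its value was seen, fell by 0.87 ± 0.33 (edgeR adjusted p = 0.0493). It had 28 and 32 counts with SGC-CBP30 and 61 and 46 with vehicle. The list had 3 lower with library totals, with no filter on low counts, and among genes with at least 50 counts in 2 libraries.

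Genes for moving sugar and pyruvate also split. Slc2a1, the glucose transporter GLUT1 and a HIF target, had 140.9 and 134.1 CPM with SGC-CBP30 and 101.0 and 101.7 CPM with vehicle, a rise of 0.44 ± 0.07 on the log2 scale (edgeR adjusted p = 1.93e-05). Slc2a2, the basolateral glucose transporter of enterocytes, had 465.4 and 467.8 CPM with SGC-CBP30 and 771.6 and 767.1 CPM with vehicle and fell by 0.72 ± 0.06. Slc16a1, a lactate and pyruvate transporter, fell by 0.49 ± 0.07. These were the called genes of 6 tested in that list, 1 higher and 2 lower. Of 8 genes of mitochondrial pyruvate entry 2 were higher, Pcx, the pyruvate carboxylase, by 0.45 ± 0.08 and Dlat, a subunit of pyruvate dehydrogenase, by 0.20 ± 0.07. The other 6 were not past the threshold, so that 25% of these 8 were called, against 30.0% of all genes tested. Leaving out SGC-CBP30 replicate 1 or either vehicle library gave 1 higher, and the transport list had 4 lower without SGC-CBP30 replicate 1.

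Of the HIF subunits and oxygen sensors 1 of 6 members was higher and 0 were lower. Hif1a had 132.0 and 150.3 CPM with SGC-CBP30 and 135.9 and 145.0 CPM with vehicle, a log2 fold change of 0.01 ± 0.07. Epas1 had 105.9 and 102.5 CPM with SGC-CBP30 and 105.0 and 115.3 CPM with vehicle, a log2 fold change of -0.08 ± 0.07. For both genes the groups overlapped, and the share of Hif1a in their length-scaled CPM was 54.9% ± 2.84 with SGC-CBP30 and 53.5% ± 0.499 with vehicle (SD, n = 2 each). Arnt, the shared partner subunit, was that gene, with 66.8 and 65.7 CPM with SGC-CBP30 and 57.9 and 55.0 CPM with vehicle (log2 fold change 0.23 ± 0.08, edgeR adjusted p = 0.0288). Arnt missed the threshold with DESeq2, at 0.23 ± 0.10 (adjusted p = 0.108). It also missed it when either vehicle library was left out, at 0.27 ± 0.12 without replicate 1 (adjusted p = 0.119) and 0.20 ± 0.12 without replicate 2 (adjusted p = 0.280), a similar size with a larger SE. Vhl had a log2 fold change of 0.14 ± 0.12, Egln1, the main HIF prolyl hydroxylase, 0.09 ± 0.07, and Egln3, itself a HIF target, -0.07 ± 0.07. Of 12 further genes of the pathway 4 were higher, 1 lower and 7 not past the threshold, against 2 higher with either vehicle library left out. Arnt2, the close relative of Arnt, had 26.2 and 25.1 CPM with SGC-CBP30 and 12.9 and 13.4 CPM with vehicle (0.96 ± 0.12, edgeR adjusted p = 1.34e-06). Hif3a, a HIF alpha subunit gene with inhibitory products, fell by 0.61 ± 0.11 on the log2 scale and Usp20, a deubiquitinase that binds VHL, rose by 0.60 ± 0.13. The remaining higher genes, named after their values were seen, were Elob, a partner of VHL in its ligase, at 0.26 ± 0.07 and Cited2, which competes with HIF-1 alpha for CBP and p300, at 0.23 ± 0.08.

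HIF targets moved in both directions: of 8 members 3 were higher, 2 lower and 3 not past the threshold, with a median log2 fold change of -0.04. Mxi1 (ENSMUSG00000025025, chromosome 19, 53310506 to 53375810, plus strand), whose protein pairs with MAX against MYC, had 83.2 and 85.0 CPM with SGC-CBP30 and 130.6 and 125.6 CPM with vehicle. It was the called member that fell most, by 0.61 ± 0.07 on the log2 scale (1.52-fold, edgeR adjusted p = 2.30e-07). Ndrg1 (ENSMUSG00000005125, chromosome 15, 66929318 to 66969640, minus strand), a stress and differentiation gene, had 778.9 and 739.0 CPM with SGC-CBP30 and 960.3 and 967.4 CPM with vehicle, and fell by 0.34 ± 0.06 (edgeR adjusted p = 4.04e-05). For both genes all treated libraries lay under all vehicle libraries. P4ha1 (ENSMUSG00000019916, chromosome 10, 59323296 to 59373304, plus strand), a collagen prolyl hydroxylase subunit, had 66.7 and 61.1 CPM with SGC-CBP30 and 44.7 and 47.9 CPM with vehicle. It rose by 0.46 ± 0.08, with no overlap (edgeR adjusted p = 1.41e-04). Adm (ENSMUSG00000030790, chromosome 7, 110627661 to 110629820, plus strand), the peptide hormone adrenomedullin, was scarce, with 11.6 and 8.26 CPM with SGC-CBP30 and 5.66 and 5.20 CPM with vehicle. Its log2 fold change was 0.87 ± 0.21 (1.82-fold, edgeR adjusted p = 0.0022), and Adm missed the threshold when SGC-CBP30 replicate 1 was left out (0.60, adjusted p = 0.0689). Ddit4, an inhibitor of mTORC1 signalling, had 68.9 and 58.4 CPM with SGC-CBP30 and 55.0 and 46.9 CPM with vehicle, a log2 fold change of 0.32 ± 0.09 (edgeR adjusted p = 0.0111). Ddit4 missed the threshold when SGC-CBP30 replicate 1 was left out, at 0.19 (adjusted p = 0.0899), and when vehicle replicate 2 was left out, at 0.21 (adjusted p = 0.241).

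The HIF target members Vegfa, Bnip3 and Ankrd37 did not pass the threshold. Vegfa, the angiogenic growth factor, had 153.2 and 141.3 CPM with SGC-CBP30 and 150.4 and 161.5 CPM with vehicle (log2 fold change -0.08 ± 0.07). Bnip3, a mitophagy receptor, had 69.4 and 60.9 CPM with SGC-CBP30 and 59.6 and 70.3 CPM with vehicle (0.01 ± 0.09). Ankrd37 had 40.7 and 33.5 CPM with SGC-CBP30 and 40.4 and 46.8 CPM with vehicle (-0.23 ± 0.10, edgeR adjusted p = 0.0999). Ankrd37 overlaps Ufsp2 on the opposite strand, whose counts were 111% of its own, so its counts are uncertain. For all 3 the groups overlapped.

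Other HIF targets split as well, in a list that was chosen with earlier results of these data known. Of 29 tested 8 were higher, 4 lower and 17 not past the threshold, with a median log2 fold change of 0.11. Those called made up 41.4% of the 29, against 30.0% of all genes tested. Leaving out SGC-CBP30 replicate 1, vehicle replicate 1 or vehicle replicate 2 gave 4 higher and 4 lower, and leaving out SGC-CBP30 replicate 2 gave 11 higher and 5 lower. Tfrc, the transferrin receptor, had 110.5 and 117.6 CPM with SGC-CBP30 and 218.7 and 213.3 CPM with vehicle and fell by 0.92 ± 0.07 (edgeR adjusted p = 4.69e-11). Angptl4, an inhibitor of lipoprotein lipase, fell by 1.06 ± 0.09 and Car12, a membrane carbonic anhydrase, by 1.55 ± 0.16 on the log2 scale. The remaining lower gene of that list, Car9, the carbonic anhydrase most used as a hypoxia marker, fell by 0.60 ± 0.06 and is named after its value was seen. The largest rise was that of Loxl2, a lysyl oxidase relative near the limit of detection, with 1.65 and 1.48 CPM with SGC-CBP30 and 0.849 and 0.125 CPM with vehicle (1.63 ± 0.59, edgeR adjusted p = 0.0377). Plod1 and Plod2, collagen lysyl hydroxylase genes named after their values were seen, rose by 0.59 ± 0.17 and 0.47 ± 0.14. Among the 4 iron genes that HIF-2 drives in the gut, 3 were lower. Slc11a2, the apical iron importer, had 424.0 and 426.0 CPM with SGC-CBP30 and 840.4 and 894.3 CPM with vehicle and fell by 1.03 ± 0.06 (edgeR adjusted p = 5.99e-13). Slc40a1, the iron exporter ferroportin, fell by 0.94 ± 0.10 and Heph, the ferroxidase hephaestin, by 0.37 ± 0.06, while Cybrd1, the apical ferric reductase, had a log2 fold change of 0.04 ± 0.06.

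**Figure D4:**
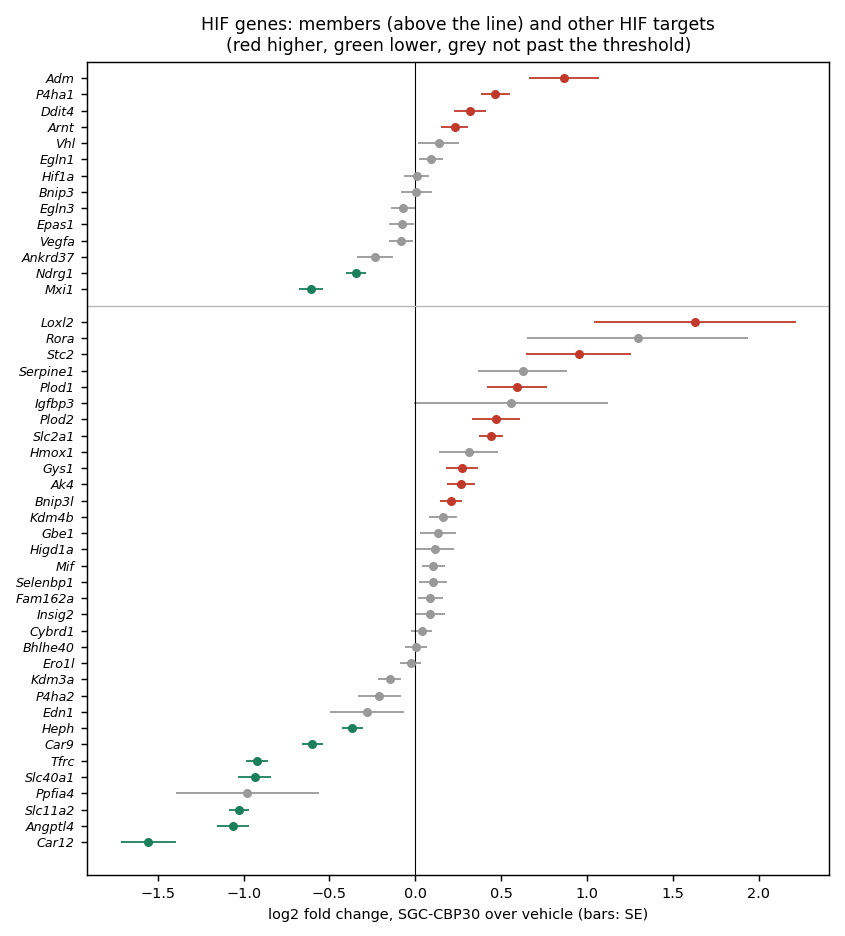
Points give log2 fold changes (SGC-CBP30 over vehicle) with their SE for the 14 HIF subunit, sensor and target members (above the line) and for 33 other HIF target and gut iron genes (below it), red if higher, green if lower and grey if not past the threshold. Both blocks hold genes on either side of 0, from Adm at 0.87 to Mxi1 at -0.61 among the members.

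Relatives of Mxi1 in the MYC and MAX network split in direction. Of 11 tested 2 were higher, 4 lower and 5 not past the threshold, against 1 higher and 2 lower with either vehicle library left out, and 1 higher without SGC-CBP30 replicate 2. Mxd1, another MAX partner that opposes MYC, had 283.5 and 258.4 CPM with SGC-CBP30 and 191.5 and 214.2 CPM with vehicle and rose by 0.42 ± 0.07 (edgeR adjusted p = 3.26e-05). Mlxipl, the carbohydrate response factor ChREBP that drives Pklr in liver, fell by 0.52 ± 0.06, and Mycn fell by 2.25 ± 0.53 at levels of 0.353 and 0.399 CPM with SGC-CBP30 and 1.59 and 2.07 CPM with vehicle. Myc itself at -0.34 ± 0.08, Mlx at -0.22 ± 0.07 and Mlxip at 0.21 ± 0.08, named after their values were seen, made up the rest of those called.

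Markers of cell types moved in the same libraries. Of 15 absorptive enterocyte markers 11 were lower, 1 higher and 3 not past the threshold. The 15 summed to 36040 to 37180 CPM with SGC-CBP30 and 48730 to 49110 CPM with vehicle. Treh, Enpep and Anpep stood at -1.21 ± 0.06, -1.06 ± 0.06 and -1.03 ± 0.06 on the log2 scale. Apoa4, the marker that was higher, stood at 0.43 ± 0.06. Of 16 proliferation markers 10 were lower, 0 higher and 6 not past the threshold (774.5 to 803.9 CPM summed with SGC-CBP30 and 946.5 to 985.5 CPM with vehicle), against 6 lower without vehicle replicate 1. Of the 9 epithelial and intestinal identity markers 4 were higher and 2 lower, with the keratins Krt18, Krt8 and Krt20 at 0.59 ± 0.06, 0.49 ± 0.06 and 0.43 ± 0.07 and the intestinal factor Cdx1 at -0.46 ± 0.08, and Epcam stood at 796.9 and 717.6 CPM with SGC-CBP30 and 742.0 and 730.7 CPM with vehicle. Of 7 Paneth cell markers 2 were lower and 0 higher (3395 to 3732 CPM summed with SGC-CBP30 and 4202 to 4294 CPM with vehicle), and of 7 goblet cell markers 1 was higher and 2 lower (4468 to 4506 CPM summed with SGC-CBP30 and 4238 to 4372 CPM with vehicle). Without SGC-CBP30 replicate 1 the lower counts were 5 for Paneth and 4 for goblet cell markers, and with either vehicle library left out 0 goblet cell markers were called. Fibroblast markers summed to 10.99 to 13.5 CPM with SGC-CBP30 and 16.9 to 17.8 CPM with vehicle, most of it Vim, with Lum at 0 in all libraries. Immune markers summed to 1.94 to 2.35 CPM with SGC-CBP30 and 4.39 to 6.17 CPM with vehicle. Endothelial markers summed to 1.76 to 1.88 CPM with SGC-CBP30 and 1.87 to 1.94 CPM with vehicle, and erythroid markers stayed under 1 CPM summed in every library. In bulk samples fewer cells of a type and less RNA per cell cannot be told apart, and the part of these shifts in the values of the glycolysis and hypoxia genes was not tested.

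Of the 12 called members, Hk1, Pfkl, Aldoa, P4ha1, Ndrg1, Pfkfb4 and Mxi1 kept their call and direction under all 12 alternatives, while Hk2, Pgk1, Arnt, Adm and Ddit4 each lost it when a library was left out. The authors' deposited table lists an adjusted p under 0.05 for 6 members higher and 3 lower, all of them called here. In the authors' deposited table Hk2 has an adjusted p of 0.0707, Ddit4 of 0.0648 and Arnt of 0.136.

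**Figure D5:**
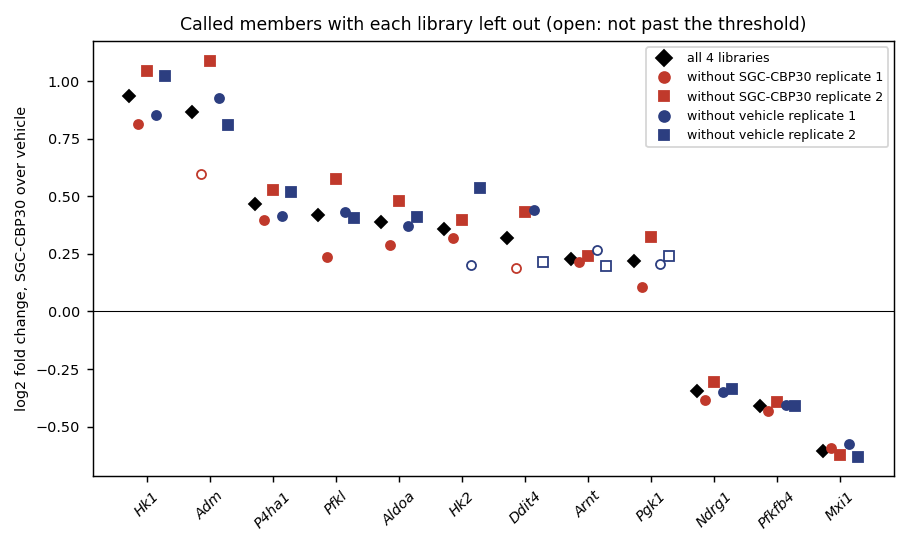
Log2 fold changes (SGC-CBP30 over vehicle) are shown for the 12 called members with all 4 libraries (black) and with each library left out, where open symbols mark an adjusted p of 0.05 or more. The direction held in every fit shown, and open symbols appear for Adm, Hk2, Ddit4, Arnt and Pgk1.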

How the data were processed

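The deposited table gave raw counts per gene and library, whole numbers that had not been normalized, per the file headers. It also held FPKM by the authors, and the authors' group means as a normalized signal, which were not used, gene lengths in bases, and the authors' log2 fold change with a p-value and an adjusted p-value from a test that is not named, all per the file headers. Per the submitters' processing notes, featureCounts 1.5.0-p3, StringTie 1.3.3b and HISAT2 2.0.5 were used, in roles not stated, with the build mm9. The listed coordinates were nevertheless those of GRCm38, since 98.5% of 51487 identifiers shared with GENCODE M21 had identical ones, and are given as such. The last line of the table has no closing line break, and 27 symbols turned into dates were restored by identifier.

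Genes were filtered with filterByExpr, normalized by TMM and tested with edgeR 4.0.16 (R 4.3.3) by the robust quasi-likelihood test, without covariates, and adjusted over 14684 genes. SE is the log2 fold change over the square root of F. Length-scaled CPM is CPM per kilobase of deposited length. Copies were found with BLAST+ 2.17.0. Alternatives used other scalings and filters, DESeq2 1.42.0, a replicate block and each library left out; those on copies and on Gapdh were added after seeing the data. At these depths 3 counts equal 0.166 to 0.183 CPM. Replicates differed by more than counting noise (chi-square per degree of freedom 6.76 with SGC-CBP30 and 3.07 with vehicle). The members and lists were chosen with earlier results of these data known. All members are named, and in the other lists up to 3 called genes of smallest p and the largest change each way; others are said to be named after their values were seen. Values of some list genes are not reported here.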

Additional observations from a re-analysis of the deposited data

How the results depend on the processing

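Deviations of same-numbered libraries from their group means had a correlation of -0.0244 over 14684 genes. With 2 libraries per group and many low genes, this cannot show whether the replicate numbers of the titles pair the libraries. With a replicate block 9 members were higher and 5 lower, Pfkm and Gapdh being added (Gapdh log2 fold change -1.43, adjusted p = 3.75e-65). Leaving out each library in turn gave 6 to 13 members higher and 3 to 6 lower, 8 to 21 genes of the other pathway lists higher, 5 to 13 marker genes higher, and 1235 to 2104 genes higher over all genes. The lone library of a group is then assumed to vary like the other group. Of the members, Tpi1 reversed to -0.14 (adjusted p = 0.00218) without SGC-CBP30 replicate 1. That library's removal also put Egln3 and Ankrd37 past the threshold as lower. Removal of SGC-CBP30 replicate 2, the library labelled SGC-CBP31, put Gpi1, Tpi1 (0.15), Pkm and Ldha past it as higher. Among genes with at least 50 counts in 2 libraries 9 members were higher and 4 lower, Pfkm being added (-0.31, adjusted p = 0.0419). DESeq2 called 1244 of all genes higher, with 8 members higher and 3 lower, and 10 marker genes were higher with library totals. Without division by length, the share of Hk1 was 64.4% with SGC-CBP30 and 55.0% with vehicle, that of Pfkl 33.3% with SGC-CBP30 and 27.3% with vehicle, and that of Pfkfb4 61.4% with SGC-CBP30 and 66.5% with vehicle, while by construction the differences in log2 ratio were unchanged for Hk1 to Hk2, Ldha to Ldhb and Pfkfb4 to Pfkfb3. DESeq2's size factors, no filter on low counts, removal of Gapdh and summing each member with its copies left 9 members higher and 3 lower. The causes were not tested. Ldhb, with 11 to 20 counts per library, and the low genes Loxl2, Mycn, Gckr and Pdk4 are limited by depth.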
